A study of Homo sapiens with 24 samples.

Results

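AZD5153 (AZD) given alone lowered a small set of transcripts in the SU-DHL-4 lymphoma line and raised none past the same threshold. The comparison is of 6 of the 24 arrays of the study: 3 SU-DHL-4 cultures exposed to 0.01 µM AZD for 72 h and 3 SU-DHL-4 cultures that received the solvent DMSO for the same time. These arrays were chosen by their labels, and all 25575 rows of the expression table were tested. The SU-DHL-4 line was established from a diffuse large B-cell lymphoma (DLBCL) of the germinal centre B-cell type. The other arrays held SU-DHL-4 under 1 µM Entospletinib (Ento), an inhibitor of the kinase SYK, SU-DHL-4 under both agents (Ento+AZD), and the Burkitt lymphoma line DG-75 under the same 4 treatments, with 3 cultures in each group. Each line is a single established culture without genetic modification by the study, so the replicates are repeated exposures of 1 line and not of different tumours. The series asked what BET and SYK inhibition do alone and together, and AZD alone is the BET arm of that design.

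BET proteins, such as BRD2, BRD3 and the testis form BRDT, bind acetylated lysines of histone tails through paired bromodomains. They act at promoters and enhancers together with P-TEFb, the kinase complex of CDK9 and a cyclin T that releases paused RNA polymerase II. AZD is a bivalent BET inhibitor, which occupies paired bromodomains at once and displaces the protein from chromatin. In B-cell lymphoma, BET inhibitors are known for effects on MYC, on cell cycle genes and on genes with large enhancers.

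A row was called when its adjusted p was under 0.05 and its change was over 2-fold. Of 25575 rows, 46 were called lower under AZD, which is 0.18% of all rows, and 0 were called higher. Without AZD replicate 2 the count was 119, and without any other single array of the 6 it was 0. The 46 called rows belonged to 46 genes, and their change ranged from -2.57 to -1.01 on the log2 scale with a median of -1.19. The median change of all rows was -0.08, and 63.9% of all rows were lower by any amount. Without the 2-fold limit 53 rows (0.207%) passed the adjusted p, all lower. At an unadjusted p under 0.05, 2455 rows (9.6%) were lower and 480 rows (1.88%) were higher. The plot of change against mean expression shows the called genes as a downward fringe, mostly in the middle and upper range of expression.

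**Figure D1:**
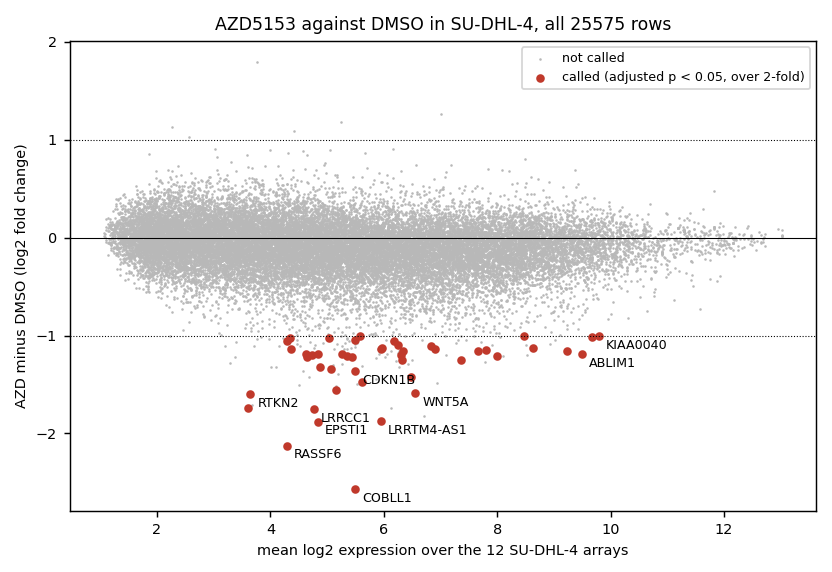
Change under AZD (log2 fold change, AZD minus DMSO) of all 25575 rows in SU-DHL-4 against the mean log2 expression over the 12 SU-DHL-4 arrays, each point 1 row, with dotted lines at a 2-fold change. The 46 called genes (red) all lie below zero, COBLL1 lowest at -2.57, and no red point lies above zero.

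The RefSeq promoters (GRCh38.p14) of the genes that the results turn on most are printed for their bases just before the transcription start, to show what sequence lies at genes that moved together. COBLL1 and RASSF6 had the largest changes, CDKN1B was among the 6 called genes with the smallest adjusted p, and JUN was a called gene with a value of opposite sign in the other line. Each stretch is the 150 bases before the start, read 5′ to 3′ on the gene's own strand: chr2:164842077-164842226 on the minus strand for COBLL1, chr4:73620632-73620781 on the minus strand for RASSF6, chr12:12717218-12717367 on the plus strand for CDKN1B and chr1:58784048-58784197 on the minus strand for JUN. Capitals mark GGGCGG (or CCGCCC, the same letters on the other strand) and CCAAT.
COBLL1: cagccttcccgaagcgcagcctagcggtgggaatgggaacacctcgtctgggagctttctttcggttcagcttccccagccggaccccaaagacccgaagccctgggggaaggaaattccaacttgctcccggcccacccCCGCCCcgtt
RASSF6: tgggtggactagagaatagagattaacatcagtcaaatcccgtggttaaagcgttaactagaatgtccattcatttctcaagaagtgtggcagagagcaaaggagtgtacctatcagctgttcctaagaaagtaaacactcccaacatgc
CDKN1B: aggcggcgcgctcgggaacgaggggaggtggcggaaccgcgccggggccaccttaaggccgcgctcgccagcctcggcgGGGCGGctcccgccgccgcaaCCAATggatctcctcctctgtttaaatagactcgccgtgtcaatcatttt
JUN: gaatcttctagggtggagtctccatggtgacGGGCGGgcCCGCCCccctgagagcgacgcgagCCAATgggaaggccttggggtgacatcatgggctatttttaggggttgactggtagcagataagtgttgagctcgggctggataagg
The stretch of COBLL1 held 1 GGGCGG box, that of CDKN1B held 1 GGGCGG box and 1 CCAAT box, that of JUN held 3 marked motifs, and that of RASSF6 held 0. GC content was 42.0% at RASSF6 and 64.0% at COBLL1. Among the called genes, 40 had a full promoter of 300 bases in the RefSeq table. With both strands searched, GGGCGG was present in 62.5% of these 40, in 44.6% of all 27305 promoters and in 58.5% of the 15843 promoters of protein-coding genes. CCAAT was present in 35.0% of the 40 against 35.7% of all, TATAAA in 12.5% against 12%, CACGTG in 2.5% against 7.43%, and TGACGTCA in 2.5% against 1.98%. The DUSP1 promoter was the single holder of CACGTG and of TGACGTCA among the 40. These matches describe letters in the window and say nothing of binding.

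The gene with the largest change was COBLL1, which encodes a cordon-bleu-like protein with an actin-binding motif. Its log2 expression was 5.79, 6.03 and 6.32 in the DMSO cultures and 2.86, 4.64 and 2.94 under AZD. The AZD cultures all lay below the DMSO cultures, with the second of them closest to the controls. The mean fell from 6.05 ± 0.26 to 3.48 ± 1.00 (SD), a 5.93-fold decrease (log2 change -2.57, 95% interval -3.34 to -1.80, adjusted p = 0.0312). RASSF6, a RAS association domain protein tied to cell death and Hippo signalling, read 4.35, 4.22 and 5.35 under DMSO and 2.44, 2.55 and 2.56 under AZD. Its 3 AZD cultures were nearly alike and its DMSO cultures varied more. The lowest of 5 equal bins of rows by mean expression reached 2.90. All RASSF6 readings under AZD and the first of COBLL1 lay below that, and without detection values background cannot be told from expression. RASSF6 fell 4.36-fold (log2 change -2.12, 95% interval -2.91 to -1.34, adjusted p = 0.0396).

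Other called genes of the list of small GTPase and G protein signalling were RTKN2, GNB3, RGS9 and RGCC, of which RGCC is not itself a G protein regulator and was listed beside the RGS proteins. RTKN2 (rhotekin 2, a GTPase effector) read 4.46, 4.27 and 5.29 under DMSO and 2.87, 3.11 and 3.26 under AZD, without overlap (log2 change -1.60, adjusted p = 0.0445). The AZD readings of RTKN2 lay near the lowest expression bin, which reached 2.90. GNB3, a G protein beta subunit, read 7.92, 8.03 and 7.79 under DMSO and 6.95, 6.68 and 6.36 under AZD (log2 change -1.25, adjusted p = 0.0312). GNB3 overlaps the mitotic gene CDCA3, whose own row differed by -0.78 (adjusted p = 0.309), and the table gives no probe positions to separate them. RGS9, which speeds the shut-off of G protein alpha subunits, changed by -1.16 (adjusted p = 0.0396), and RGCC, a regulator of the cell cycle with CDK1 as a partner, by -1.16 (adjusted p = 0.0341). RGCC read 9.67, 9.52 and 9.45 under DMSO against 8.23, 8.72 and 8.21 under AZD. In the whole list of small GTPase and G protein signalling, 6 of 52 measured genes, RGCC among them, were called lower, against 0.18% of all rows, and 0 higher. The list median was -0.18 against -0.08 for all rows, and -0.06 against 0.04 after subtraction of array medians. The list was drawn up around COBLL1, RASSF6 and RTKN2, which are among its 6 calls.

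CDKN1B encodes p27, the inhibitor of cyclin E-CDK2 that holds cells in G1. It read 6.72, 5.58 and 7.0 under DMSO and 5.64, 4.13 and 5.43 under AZD, so that the second DMSO culture lay below the first AZD culture. Within the same replicate number it differed by -1.07, -1.45 and -1.58, and the fitted change was -1.37 (95% interval -1.75 to -0.99, adjusted p = 0.0312). JUN and DUSP1 showed the same layout. JUN, a subunit of the AP-1 transcription factor, read 6.73, 4.85 and 6.31 under DMSO and 5.88, 3.55 and 5.34 under AZD (log2 change -1.04, adjusted p = 0.0325). DUSP1, the phosphatase that switches off MAP kinases, read 7.39, 6.09 and 7.41 against 6.14, 4.76 and 6.23 (log2 change -1.25, adjusted p = 0.0341). In all these genes the second culture was low in both groups, and the change within pairs was steadier than the level. CDKN1B, JUN and DUSP1 were the 3 called genes whose groups overlapped, while the other 43 did not overlap. Of all rows, 12.9% had every AZD array below every DMSO array. The genes were called on these same arrays, so their separation follows largely from the call and is no separate support.

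EPSTI1, an interferon-induced gene, read 6.23, 5.93 and 5.69 under DMSO and 3.90, 4.41 and 3.90 under AZD (log2 change -1.88, adjusted p = 0.0323). CFLAR, which encodes the caspase-8 inhibitor c-FLIP, read 8.03, 8.09 and 8.49 under DMSO and 7.01, 7.22 and 6.94 under AZD (log2 change -1.14, adjusted p = 0.0325). WNT5A, a secreted WNT ligand, was tight under DMSO at 7.18, 7.10 and 7.25 and spread under AZD at 5.71, 6.19 and 4.87 (log2 change -1.59, adjusted p = 0.0382). These 3 genes had no overlap between groups. PRICKLE1, of the planar polarity branch of WNT signalling, changed by -1.42 (adjusted p = 0.0417). NLRC4, an inflammasome sensor, changed by -1.2 (adjusted p = 0.0341).

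LRRCC1 and CILK1 were the called members of the centrosome and cilium list, and other called genes with related roles are named beside them, grouped after their values were seen. LRRCC1, a centriole protein, read 6.21, 5.57 and 6.64 under DMSO and 3.75, 4.16 and 5.26 under AZD (log2 change -1.75, adjusted p = 0.0396). CILK1, a kinase of ciliogenesis, changed by -1.34 (adjusted p = 0.0341), HAUS4, a subunit of the augmin complex that nucleates spindle microtubules, by -1.2 (adjusted p = 0.0325), and TMEM67, a protein of the ciliary base, by -1.14 (adjusted p = 0.0382). CFAP20DC, named for a cilia and flagella protein domain, read 5.98, 5.65 and 6.51 under DMSO and 4.91, 4.36 and 4.21 under AZD (log2 change -1.55, adjusted p = 0.0312). ABLIM1, an actin-binding LIM protein, read 9.82, 9.69 and 9.95 under DMSO and 8.45, 8.76 and 8.68 under AZD, a clear separation (log2 change -1.19, 95% interval -1.55 to -0.84, adjusted p = 0.0312). SPTBN1, a spectrin beta chain, changed by -1.13 (adjusted p = 0.0382).

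Surface and secreted proteins included CLEC2D, the ligand of the NK cell receptor KLRB1, with 10.11, 10.14 and 9.74 under DMSO and 9.12, 9.09 and 8.73 under AZD (log2 change -1.02, adjusted p = 0.0325). LGALS1, the glycan-binding galectin-1, changed by -1.16 (adjusted p = 0.0364), EMP3, a tetraspan membrane protein, by -1.01 (adjusted p = 0.0325) and JAML, an adhesion molecule of leukocytes, by -1.22 (adjusted p = 0.0382). KLRC3, an NK cell lectin receptor, read 4.21, 3.85 and 4.33 under DMSO and 2.17, 2.93 and 2.08 under AZD (log2 change -1.74, adjusted p = 0.0325). The AZD readings of KLRC3 lay in or near the lowest expression bin, which reached 2.90, and may be background. The near-identical relatives of KLRC3, KLRC1 and KLRC2, had low rows that differed by 0.09 and -0.15, and none of the 7 NK cell markers was called. SLC7A7, a subunit of a cationic amino acid transporter, changed by -1.11 (adjusted p = 0.0382). ZNF432, a zinc finger gene with the smallest unadjusted p of the comparison, read 6.09, 5.95 and 5.95 under DMSO and 4.68, 4.68 and 4.99 under AZD (log2 change -1.21, adjusted p = 0.0312). PKIG, an inhibitor of protein kinase A, changed by -1.21 (adjusted p = 0.0325).

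The noncoding called row with the largest change was LRRTM4-AS1, at 7.53, 7.13 and 7.82 under DMSO and 5.69, 5.88 and 5.30 under AZD (log2 change -1.87, adjusted p = 0.0341). It lies antisense to LRRTM4, a neuronal synapse gene, whose row was low and differed by -0.23 (adjusted p = 0.722). Of the remaining genes among the first 30 by adjusted p, CALML4, ANXA2R, TMCC3, SNX16 and C1orf54 changed by -1.19 to -1.02. The other called genes were MLLT11 (-1.47), AFG1L (-1.32), LINC01599 (-1.22), LRRC34, NFIB, CHI3L2, LINC01152, S100A13, PDE4B, KIAA0040 and PLCXD1, with the last 8 between -1.14 and -1.01. PLCXD1 had 2 rows, and the other, at -0.98, was not called. In the RefSeq annotation CALML4 overlaps PIAS1, C1orf54 overlaps APH1A, LRRC34 overlaps LRRIQ4 and S100A13 overlaps S100A1 and CHTOP, and signal from these neighbours cannot be told apart here. The neighbours' own rows differed by -0.17 (PIAS1), -0.18 (APH1A), -0.72 (LRRIQ4), -0.07 (S100A1) and 0.02 (CHTOP). The plot of the called genes by array shows all 46 in each culture.

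**Figure D2:**
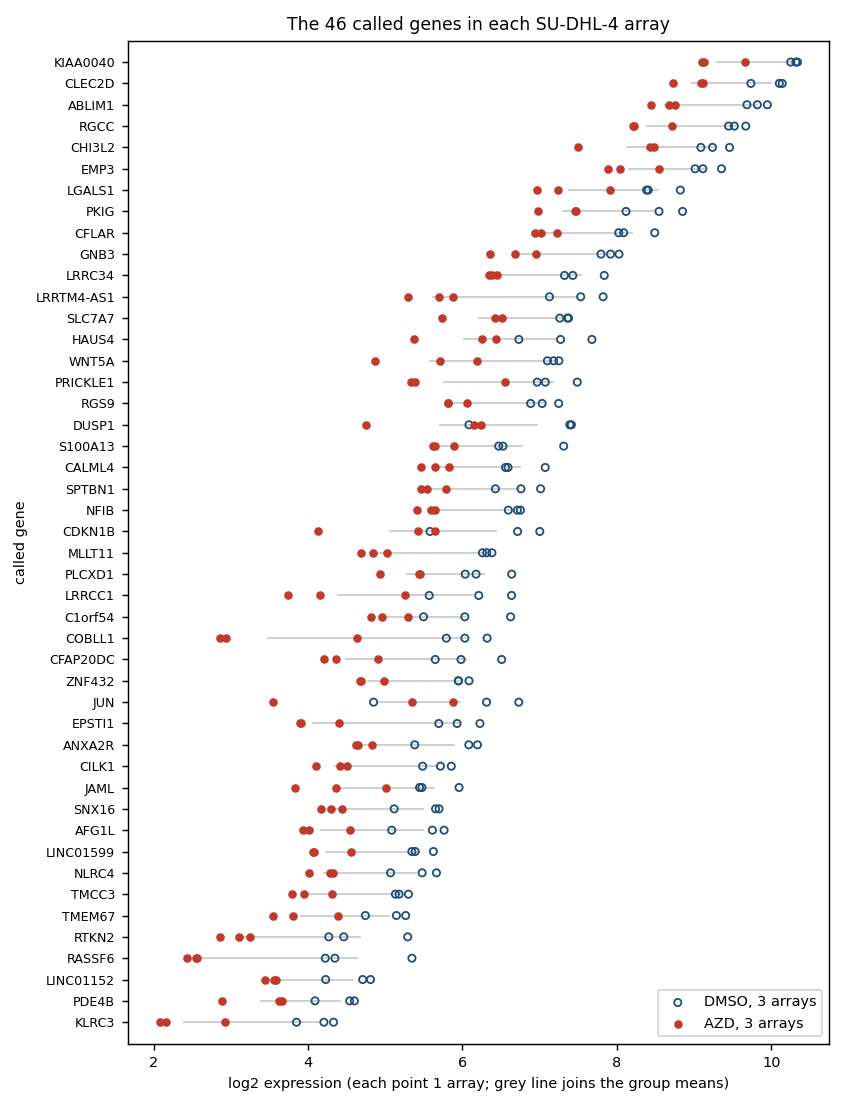
Log2 expression of the 46 called genes in the 3 DMSO arrays (open blue circles) and the 3 AZD arrays (red points) of SU-DHL-4, 1 gene per line in the order of the DMSO mean, with a grey line between the group means. Red points lie left of all blue circles in 43 genes, and the groups overlap in CDKN1B, JUN and DUSP1.

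The count of 46 depended on how the arrays were fitted. With the replicate number left out of the model, 9 rows were called. When array medians were subtracted first, the median change of all rows moved from -0.08 to 0.04, 0 rows passed and the smallest adjusted p was 0.0584, while 2842 rows had an unadjusted p under 0.05. In that fit all 46 had an unadjusted p under 0.05, and their median change was -1.07 against -1.19 without the subtraction. Without AZD replicate 2, 119 rows were called, 40 of them among the 46, and without any other single SU-DHL-4 array of the comparison 0 rows were called by limma (smallest adjusted p 0.0637 to 0.196, with 2117 to 2546 rows at an unadjusted p under 0.05). In every fit each called gene that was tested was lower under AZD. The AZD arrays had array medians of 4.89 to 5.03 against 5.05 to 5.13 for DMSO, and AZD replicate 1 had the lowest median of the 24 arrays.

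**Figure D3:**
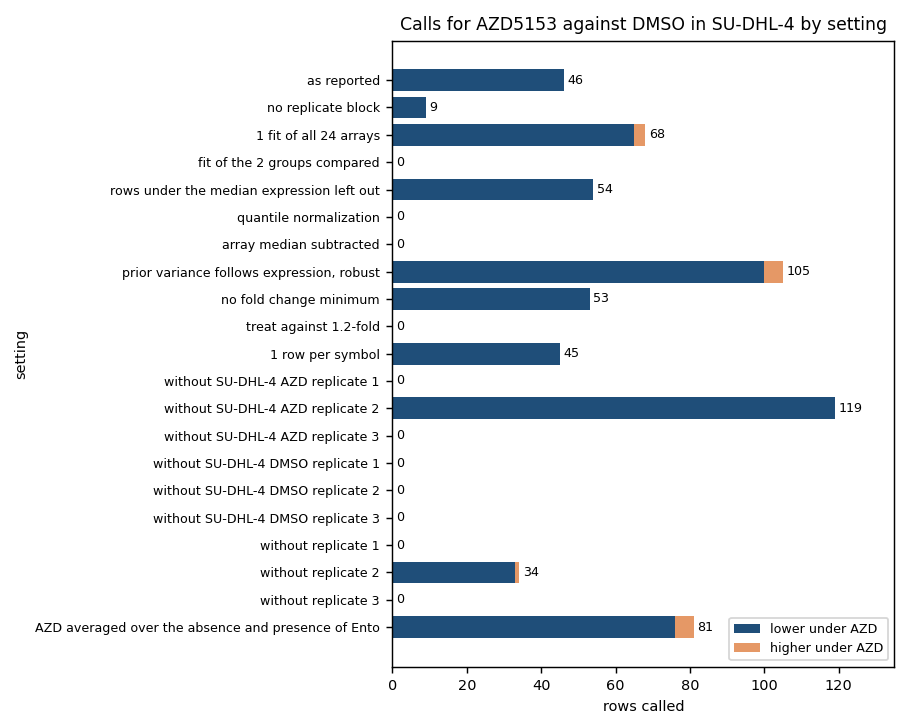
Number of rows called in AZD against DMSO in SU-DHL-4 (adjusted p under 0.05, over 2-fold unless the setting says otherwise) for the reported fit and each alternative, with lower rows in blue and higher rows in orange. The count runs from 0 to 119 and calls are nearly all in the lower direction, with at most 5 higher rows.

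The same 46 genes were read in 2 sets of arrays that share none with the comparison. The first was Ento+AZD against Ento, which adds AZD to SU-DHL-4 cells that already received Ento. There 45 of the 46 were lower, against 53.9% of all rows, and 39 were lower at an unadjusted p under 0.05, against 6.65% of all rows. This contrast shares its residual variance with the fit that made the calls. In a fit of the Ento and Ento+AZD arrays alone, 38 of the 46 were lower at an unadjusted p under 0.05, against 8.32% of all rows. Their median change was -0.75, that of all rows -0.02. In that comparison 18 rows were called lower, which is 0.0704% of all rows, and 4 of them were among the 46: GNB3, EPSTI1, KIAA0040 and CHI3L2. Without Ento replicate 2, 23 rows were called there, and without any other single one of these 6 arrays limma called 0, with 1773 to 2278 rows at an unadjusted p under 0.05. The change of GNB3 was -1.2 (adjusted p = 0.0451), of EPSTI1 -1.66 (adjusted p = 0.0451), of KIAA0040 -1.05 (adjusted p = 0.0451) and of CHI3L2, a chitinase-like protein, -1.18 (adjusted p = 0.0464). JUN passed the adjusted p alone at -0.97 (adjusted p = 0.0451). With no fold limit 26 rows (0.102%) passed. For 27 of the 46 every Ento+AZD array lay below every Ento array, against 7.15% of all rows.

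COBLL1 read 6.97, 6.93 and 7.23 under Ento and 5.48, 5.10 and 5.61 under Ento+AZD, a difference of -1.64 (adjusted p = 0.0905). RASSF6 read 6.32, 4.79 and 7.05 under Ento and 4.65, 3.09 and 4.09 under Ento+AZD, a difference of -2.11 (adjusted p = 0.0576). The mean of both genes was higher under Ento than under DMSO, COBLL1 by 0.99 (adjusted p = 0.487) and RASSF6 by 1.41 (adjusted p = 0.314), neither called and RASSF6 with overlap between the groups. Against the same DMSO arrays, Ento+AZD stood at -0.65 for COBLL1 and at -0.70 for RASSF6, beside -2.57 and -2.12 for AZD alone. These contrasts share their DMSO arrays, so their values are given side by side without a comparison.

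A group of 7 called genes had an unadjusted p above 0.05 when AZD was added to Ento. RTKN2 differed by -0.16 there and read 3.96, 2.46 and 4.03 under Ento, already below its DMSO values. ABLIM1 differed by -0.24, PRICKLE1 by -0.33, TMEM67 by -0.37, PDE4B by -0.06 and LINC01599 by -0.08. LINC01152 was the exception in direction at 0.13, with 4.80, 4.14 and 4.44 under Ento and 4.69, 4.83 and 4.26 under Ento+AZD. CDKN1B differed by -0.38 (adjusted p = 0.516), with 6.07, 4.18 and 6.03 under Ento and 5.40, 4.30 and 5.43 under Ento+AZD. Whether Ento altered the AZD response of these genes was not tested.

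The second set with separate arrays was AZD against DMSO in DG-75. Here 42 of the 46 were lower, against 60.5% of all rows, and 26 were lower at an unadjusted p under 0.05, against 11.3%. In 25 every AZD array lay below every DMSO array, against 14.6% of all rows. Their median change was -0.57, that of all rows -0.06. Of 42 rows called lower in DG-75, 0.164% of all rows, 2 were among the 46. Without any single AZD or DMSO array of DG-75, limma called 0 rows there, with 2183 to 3898 rows at an unadjusted p under 0.05. RGCC read 4.09, 3.59 and 4.65 under DMSO and 2.55, 2.40 and 2.97 under AZD in DG-75 (log2 change -1.47, adjusted p = 0.0471). KIAA0040 read 8.12, 8.08 and 7.73 against 6.60, 7.29 and 6.57 (log2 change -1.16, adjusted p = 0.0471). COBLL1 stood close to its SU-DHL-4 pattern, with 6.44, 5.80 and 5.48 under DMSO and 3.11, 4.52 and 3.78 under AZD (log2 change -2.10, adjusted p = 0.0679). CHI3L2 differed by -1.96 (adjusted p = 0.056) and LRRC34 by -1.71 (adjusted p = 0.056).

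**Figure D4:**
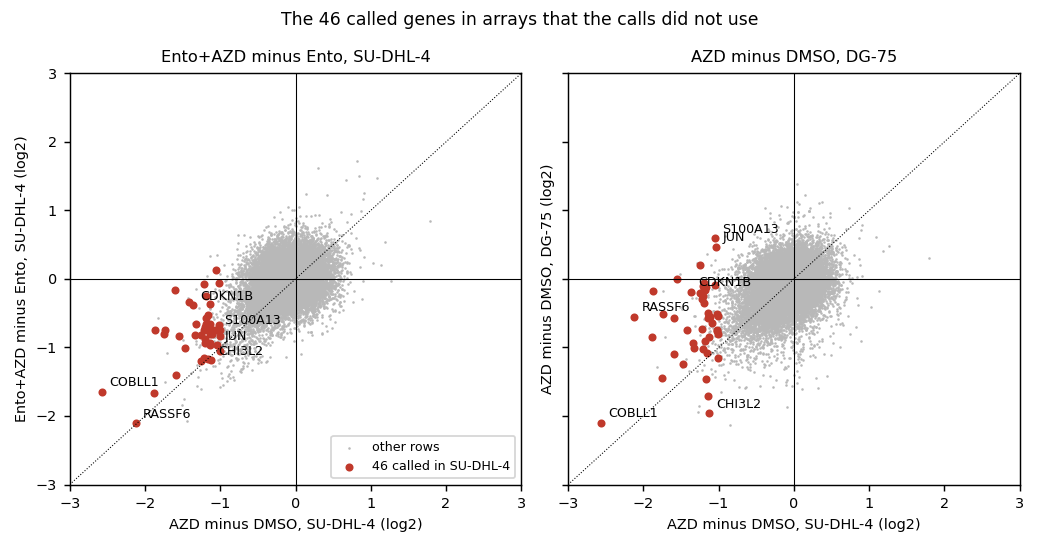
Change under AZD in SU-DHL-4 (x axis, log2 fold change) against the change when AZD was added to Ento in SU-DHL-4 (left) and against the change under AZD in DG-75 (right), with the 46 called genes in red, other rows in grey and the dotted line at equal change. On the left 45 red points lie below zero and on the right 42, with S100A13 and JUN highest on the right.

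Some called genes gave other values in DG-75. S100A13, a calcium-binding S100 protein, read 4.41, 4.14 and 4.48 under DMSO and 5.13, 4.92 and 4.76 under AZD, all higher (log2 change 0.59, adjusted p = 0.158). JUN stood at 0.47 (adjusted p = 0.543) and DUSP1 at 0.20 (adjusted p = 0.638), with DG-75 cultures that overlapped. CFAP20DC was low in DG-75, between 2.46 and 2.87 in both groups, with a difference of 0.0031. CDKN1B was higher in DG-75 than in SU-DHL-4, at 7.73, 8.26 and 7.78 under DMSO and 7.42, 7.97 and 7.81 under AZD (log2 change -0.19, adjusted p = 0.76). RASSF6 and RTKN2 also stood higher in DG-75, at 7.77 to 8.30 and 8.89 to 9.0 under DMSO, and differed there by -0.55 (adjusted p = 0.371) and -1.09 (adjusted p = 0.0753). The test of the difference between the lines called 0 rows, while 1576 rows (6.16%) had an unadjusted p under 0.05, as did 23 of the 46. Since the 46 were chosen for their change in SU-DHL-4, a larger change there than in DG-75 is built into that count.

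Across all 25575 rows, the AZD response of SU-DHL-4 had a Pearson correlation of 0.36 (Spearman 0.25) with the response to AZD added to Ento, and of 0.35 (Spearman 0.29) with that of DG-75. These are correlations across genes, which are not independent replicates, and the arrays of both pairs are separate.

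Mitosis, DNA replication and histone genes were lower together, mostly by less than 2-fold and without calls. All 53 measured mitosis genes were lower under AZD, against 63.9% of all rows, with a median of -0.77, and 45 of them at an unadjusted p under 0.05, against 9.6%, while 0 were called. In 40 of the 53 the AZD arrays all lay below the DMSO arrays, against 12.9% of all rows. KIF20A, a kinesin of cytokinesis, read 8.67, 8.40 and 8.95 under DMSO and 7.63, 6.82 and 7.77 under AZD (log2 change -1.27, adjusted p = 0.182). KIF2C, a kinesin that takes microtubules apart at centromeres, read 8.86, 8.55 and 9.54 against 7.52, 7.58 and 8.21 (log2 change -1.21, adjusted p = 0.182). By role, the median was -0.65 for kinetochore and centromere genes, -0.77 for kinases and checkpoint genes and -0.80 for motors. The mitosis list had a median of -0.83 when AZD was added to Ento and of -0.68 in DG-75, and 52 of 53 were lower in DG-75. After subtraction of array medians 42.8% of all rows were lower. All 53 mitosis genes were still lower in that fit, 37 at an unadjusted p under 0.05 against 5.11% of all rows, with a median of -0.65.

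DNA replication genes gave 54 of 55 lower, 32 at an unadjusted p under 0.05 (63.9% and 9.6% of all rows) and a median of -0.53, with -0.88 when AZD was added to Ento and -0.64 in DG-75. POLE2, a subunit of the leading strand polymerase, read 7.23, 6.96 and 8.06 under DMSO and 6.29, 5.32 and 6.76 under AZD (log2 change -1.29, adjusted p = 0.103). CHAF1B, of the chromatin assembly factor, differed by -1.0 (adjusted p = 0.203). Histone genes gave 58 of 60 lower, 41 at an unadjusted p under 0.05, against the same shares of all rows, and a median of -0.50. By class the median was -0.70 for H4, -0.55 for H2B, -0.52 for H3, -0.46 for H2A and -0.33 for H1. H4C4 read 8.83, 8.01 and 8.94 under DMSO and 8.19, 6.69 and 8.02 under AZD (log2 change -0.96, adjusted p = 0.0515), and H2BC10 differed by -0.91 (adjusted p = 0.105). After subtraction of array medians 21 replication genes (median -0.41) and 25 histone genes (median -0.38) were lower at an unadjusted p under 0.05, against 5.11% of all rows. Without DMSO replicate 2 the median of the mitosis list was -0.45 and that of the replication list -0.27. In bulk RNA a smaller share of cycling cells and less transcript per cell cannot be told apart.

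The G1 control list had 29 of 32 lower, against 63.9% of all rows, and a median of -0.34 (-0.22 after subtraction of array medians), with CDKN1B as its 1 call against 0.18% of all rows. Cyclins and kinases of G1 had a median of -0.37, pocket proteins with E2F factors one of -0.46, and CDK inhibitors one of -0.10 (0.017 after the subtraction). E2F8, a repressor of the E2F family, read 7.78, 7.69 and 8.53 under DMSO and 6.38, 6.21 and 6.94 under AZD. It did not overlap, yet it was not called (log2 change -1.49, adjusted p = 0.161). CDKN1A, which encodes p21, differed by -0.03, and by 0.090 after subtraction of array medians. The centrosome and cilium list had 56 of 59 lower, against 63.9% of all rows, and 2 calls, LRRCC1 and CILK1, against 0.18%. Its median was -0.38, which was -0.19 without AZD replicate 1. CDKN1B and LRRCC1 were among the names picked with earlier results of these data known, as were both lists.

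Interferon-stimulated genes were lower in 38 of 42, against 63.9% of all rows, with a median of -0.33 and EPSTI1 as the 1 call, against 0.18% of all rows. After subtraction of array medians 32 of 42 were lower, against 42.8% of all rows, with a median of -0.21 against 0.04. DTX3L and PARP9, partner proteins of the interferon and DNA damage responses, differed by -1.39 (adjusted p = 0.0724) and -1.25 (adjusted p = 0.0895) and were not called. DTX3L read 6.44, 6.01 and 6.06 under DMSO and 4.52, 5.07 and 4.75 under AZD. When AZD was added to Ento, PARP9 was called lower at -1.61 (adjusted p = 0.0451). The 7 APOBEC3 deaminases, which edit cytidines in viral DNA, had a median of -0.68 and 0 calls, with APOBEC3D at -1.04 (adjusted p = 0.109) and APOBEC3C at -0.97 (adjusted p = 0.0992). The cystine and ATF4 list was lower in 20 of 23, against 63.9% of all rows, with a median of -0.23 (-0.11 after the subtraction) and 0 calls. SLC7A11, the cystine transporter, read 7.71, 7.62 and 8.02 under DMSO and 7.18, 6.58 and 6.64 under AZD. Its change of -0.98 passed the adjusted p of 0.0396 but not the 2-fold limit. The cell death and survival list was lower in 28 of 34, against 63.9% of all rows, with a median of -0.23. CFLAR was its 1 call, against 0.18% of all rows. After the subtraction 22 of 34 were lower, against 42.8% of all rows, with a median of -0.11. BCL2A1, a BCL2 relative, differed by -0.87 (adjusted p = 0.0946).

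**Figure D5:**
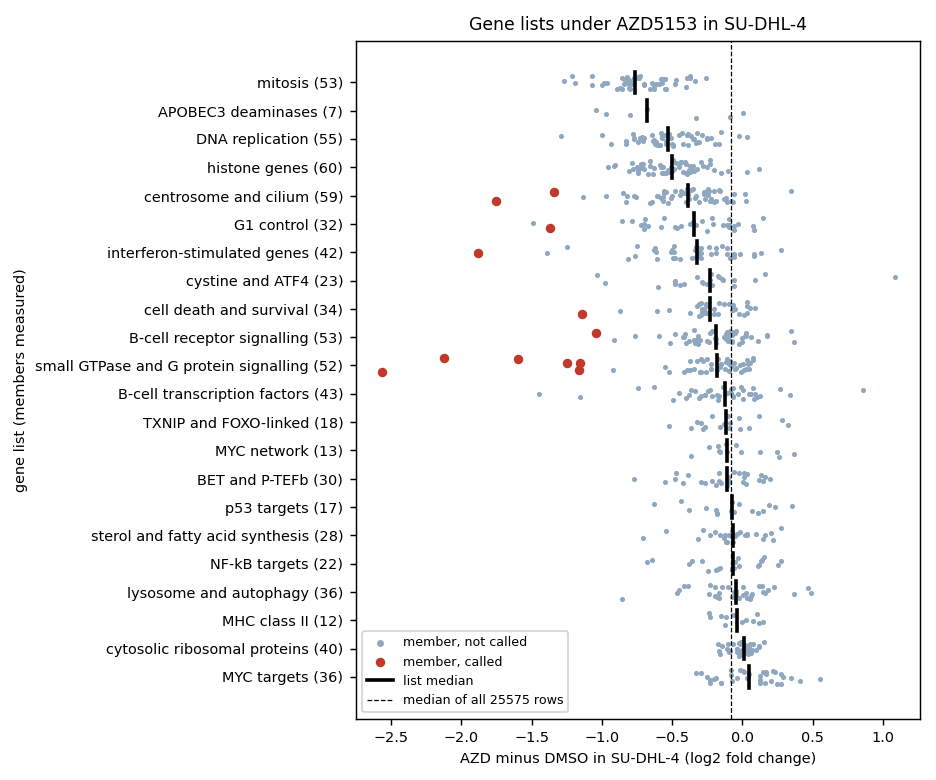
Change under AZD in SU-DHL-4 (log2 fold change) of the members of 22 gene lists, each point 1 gene, red where called, with a black bar at the list median and a dashed line at the median of all rows. Lists of mitosis, APOBEC3, DNA replication and histone genes sit lowest, with medians of -0.77 to -0.50, and MYC targets sit highest at 0.04.

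MYC, BRD2, BRD3 and the measured P-TEFb genes were not called. MYC read 9.34, 9.55 and 9.35 under DMSO and 9.26, 9.42 and 9.23 under AZD, a difference of -0.11 (95% interval -0.41 to 0.19), which was 0.0077 after subtraction of array medians. Its lower bound lies above the smallest change among the called genes, -1.01. Its 36 listed targets of ribosome biogenesis, translation and metabolism had a median of 0.04, with 14 lower, against 63.9% of all rows, 22 higher and 0 called. After subtraction of array medians 9 were lower, against 42.8%, and the median was 0.16. The median without the subtraction was 0.12 for ribosome biogenesis and -0.07 for metabolism and translation. When AZD was added to Ento 27 of the 36 MYC targets were lower, against 53.9% of all rows, with a median of -0.16. In DG-75 33 of the 36 were lower, against 60.5%, 14 of them at an unadjusted p under 0.05, against 11.3%, with a median of -0.31. BRD2 differed by 0.0048. BRD3 differed by -0.48 (adjusted p = 0.255), with 6.73, 7.01 and 6.81 against 5.96, 6.46 and 6.68. HEXIM1, the inhibitor of P-TEFb that often rises under BET inhibitors, differed by 0.15 (adjusted p = 0.799), and in DG-75 by 0.77 (adjusted p = 0.0768). The difference between lines in HEXIM1 had an adjusted p of 0.703. TXNIP, an inhibitor of thioredoxin, differed by -0.09 in SU-DHL-4, or by 0.025 after subtraction of array medians, and by 1.05 in DG-75 (adjusted p = 0.0471, among the 0.0156% of rows called higher there). The difference between lines in TXNIP had an adjusted p of 0.285. The medians of the BET and P-TEFb, MYC network, p53, NF-kB, sterol, lysosome, MHC class II and TXNIP lists lay between -0.12 and -0.04, and all were above zero after that subtraction.

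No gene of the list of B-cell regulators was called. BCL6, the germinal centre repressor, differed by 0.08, the survival genes BCL2 and MCL1 by 0.0092 and 0.04. MYB, a transcription factor of immature and germinal centre B cells, read 6.52, 6.90 and 7.55 under DMSO and 5.52, 5.14 and 5.97 under AZD. It did not overlap but was not called (log2 change -1.45, adjusted p = 0.0992), while it was called lower when AZD was added to Ento (-2.08, adjusted p = 0.0451) and in DG-75 (-1.28, adjusted p = 0.0471). IKZF2, an Ikaros family zinc finger, differed by -1.16 (adjusted p = 0.0512). The list of B-cell regulators had 31 of 43 lower, against 63.9% of all rows, 11 of them at an unadjusted p under 0.05, against 9.6%. In 13 every AZD array lay below every DMSO array, against 12.9% of all rows. Its median was -0.12, or -0.0006 after subtraction of array medians. By role, 14 of 17 B lineage, 13 of 18 germinal centre and 4 of 8 plasma cell genes were lower. Of these 6, 3 and 2 were lower at an unadjusted p under 0.05. After the subtraction 9 of 17, 10 of 18 and 3 of 8 were lower, with 3, 1 and 2 at that p. The list of B-cell receptor signalling had 42 of 53 lower, a median of -0.19 and JUN as its 1 call, against 0.18% of all rows, and after the subtraction 28 of 53 lower, against 42.8% of all rows, and a median of -0.07. PTPN6, the phosphatase SHP-1 that restrains the receptor, read 5.97, 6.53 and 5.44 under DMSO and 4.78, 5.80 and 4.64 under AZD (log2 change -0.91, adjusted p = 0.103).

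Over the 12 SU-DHL-4 arrays the means of the general B-cell markers BANK1, PAX5, MS4A1 and CD79A were 7.65, 8.42, 11.58 and 12.17, and those of the germinal centre markers ran from 6.5 for LMO2 to 11.82 for BCL6. None of the 9 B-cell, 8 germinal centre, 7 plasma cell, 11 T-cell, 7 NK-cell, 10 myeloid, 8 stromal or 5 epithelial markers was called. Their means ran from 1.71 for CD2 to 5.91 for CD5 in the T-cell list, from 1.61 for KLRD1 to 5.91 for PRF1 in the NK-cell list, from 2.48 for LYZ to 5.59 for CSF1R in the myeloid list and from 1.94 for CDH1 to 7.11 for KRT8 in the epithelial list. CD3D was at 3.22, CD14 at 4.67 and EPCAM at 2.63. The summed log2 level of the T-cell list was 39.1 to 40.9 under DMSO and 38.8 to 39.8 under AZD, that of the NK-cell list 26.0 to 26.9 and 26.2 to 26.5, that of the myeloid list 40.2 to 43.0 and 39.5 to 41.0. In the stromal list the means ran from 1.99 for LUM to 9.14 for DCN, and in the plasma cell list from 2.35 for PRDM1 to 11.91 for JCHAIN. The table holds no detection value, so a low row cannot be separated from background.

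Higher values under AZD did not pass the threshold. DCXR, a carbonyl reductase, had the smallest adjusted p of the higher genes named here, with a change under 2-fold. It was even between cultures, with 8.91, 9.15 and 8.99 under DMSO and 9.66, 9.71 and 9.74 under AZD (log2 change 0.69, adjusted p = 0.0724). It differed by 0.83 when AZD was added to Ento (adjusted p = 0.0464, under 2-fold) and by 0.73 in DG-75 (adjusted p = 0.0787). TARS3, a threonyl-tRNA synthetase-like protein, read 3.79, 3.38 and 3.36 under DMSO and 4.36, 5.29 and 4.13 under AZD (log2 change 1.09, adjusted p = 0.0895). It was called higher when AZD was added to Ento (1.48, adjusted p = 0.0451), as were 3 rows (0.0117%) in all. C8orf89 differed by 1.79 (adjusted p = 0.0803), LINC02338 by 1.13 (adjusted p = 0.0992) and SNORD109B by 0.85 (adjusted p = 0.0952), all from low levels under DMSO. XBP1, a factor of secretory cells, differed by 0.86 (adjusted p = 0.109). It is 1 of 7 plasma cell markers, of which 4 were lower and 3 higher, with a median of -0.08. TNFRSF17 of that list differed by -0.74 (adjusted p = 0.301). In all, 12 rows were higher at an unadjusted p under 0.001. Of these, 11 were higher when AZD was added to Ento, against 46.1% of all rows, 6 at an unadjusted p under 0.05, against 3.03%. That contrast shares its residual variance with the fit that picked the 12 rows, so the p-values are not independent of the choice. In DG-75 9 were higher, against 39.5%, 5 at an unadjusted p under 0.05, against 2.51%.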

How the data were processed

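RNA of 24 cultures was hybridised to Clariom D human arrays. The deposited values are log2 expression values: the authors normalized them by RMA, which corrects background, sets the arrays to 1 distribution of intensities and reduces each transcript's probes to 1 value, and mapped them to gene symbols. The genome build, the annotation version and detection values are not given in the sources used here. RMA pulls array distributions together before deposit, so a shift of all transcripts would be reduced.

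With limma 3.58.1 in R 4.3.3 and its default settings, the 12 arrays of a line were fitted with treatment and replicate number, and p-values were adjusted by Benjamini-Hochberg over 25575 rows. Calls needed an adjusted p under 0.05 and a log2 change of over 1 in size. The submitters describe the replicates as biological. Same-numbered DMSO and AZD cultures of SU-DHL-4 deviated together over rows (correlations 0.12, 0.14 and 0.21), and the numbers come from the sample labels. Those of DG-75 did not (-0.13, -0.13 and 0.14), where 39 rows were called without the replicate term against 46 with it. The study's model has a batch term that its methods do not define, and replicate number was used in its place. The study's model also has a term for line, while each line was fitted alone here. In 1 fit of all 24 arrays AZD against DMSO in SU-DHL-4 called 68 rows, 65 lower and 3 higher. The line difference came from 1 fit of 24 arrays with replicate number within line. With 3 arrays per group, array number limits the precision, and intervals are at 95%.

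Where a gene had several rows, the one with the highest mean stands for it, but every called row is named. Named genes were all called genes (the first 30 by adjusted p with values), 5 higher genes, 19 of the listed names (another is not reported here), 2 members of each list by size of change and 5 genes of the line difference. The genes and the 30 lists (830 of 836 genes measured) were chosen with earlier results of these data known, and no set test was run. The scripts were tested on simulated data. Alternatives varied the block, the arrays fitted, the scaling, filters, the variance prior and the fold limit, and left out arrays. 0 per-sample columns were unused. Promoters are from RefSeq (GRCh38.p14, 250 bases before to 50 after the start).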

Additional observations from a re-analysis of the deposited data

Results flagged for a closer look

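In 10 named genes, all 3 same-numbered differences of SU-DHL-4 lay one way under AZD and all 3 of DG-75 the other way, although DG-75 cultures of one number did not deviate together. The difference was tested by the interaction of line and treatment over 24 arrays, and none of the 10 passed after adjustment over all rows. Differences are given as the SU-DHL-4 response minus the DG-75 response on the log2 scale, each with its adjusted p. Negative values were found for S100A13 (-1.64, 0.156), PTPN6 (-1.54, 0.281), JUN (-1.51, 0.285), DUSP1 (-1.45, 0.174), AFF1, a subunit of the super elongation complex (-0.97, 0.551), HLA-DOB, a modulator of MHC class II loading (-0.89, 0.285), and DCN, decorin (-0.63, 0.797). Positive values were found for LINC02338 (1.30, 0.285), PLEK, pleckstrin (1.25, 0.278), and SNORD109B (1.24, 0.438). PLEK read 8.72, 9.10 and 8.29 under DMSO and 7.38, 8.04 and 7.64 under AZD in DG-75, where it was called lower (-1.01, adjusted p = 0.0471), and differed by 0.24 in SU-DHL-4. HLA-DOB stood at -0.24 in SU-DHL-4 and at 0.65 in DG-75 (adjusted p = 0.0722). AFF1 stood at -0.77 and 0.20, and PTPN6 at -0.91 and 0.63. The levels of SNORD109B and LINC02338 were low in both lines.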

How the results depend on the processing

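AZD against DMSO in SU-DHL-4 called 46 rows. It called 9 with no replicate block and 68 in 1 fit of 24 arrays (65 lower, 3 higher, 41 of the 46 kept). It called 0 in a fit of the 2 groups alone (smallest adjusted p 0.0688), 0 after quantile normalization (0.0677) and 0 after subtraction of array medians (0.0584). With rows under the median expression left out it called 54, among them the 33 of the 46 that were tested. A robust variance prior that follows expression gave 105 (100 lower, 5 higher, all 46 kept). The test against 1.2-fold gave 0. AZD averaged over the absence and presence of Ento gave 81 (76 lower, 5 higher), with 21 of the 46 kept. Leaving out arrays gave 0 to 119. In fits with 0 calls, 791 to 3132 rows had an unadjusted p under 0.05. Ento+AZD against Ento in SU-DHL-4 called 21, with 0 without the replicate block, 90 in 1 fit of 24 arrays, 0 in the fit of 2 groups, 70 with rows under the median expression left out, 0 after quantile normalization, 107 with the robust expression-trended prior, 0 against 1.2-fold and 0 to 23 with arrays left out. AZD against DMSO in DG-75 called 46, with 122, 12, 103, 2, 155 and 0 in the same fits from the 24 arrays on, 0 after subtraction of array medians, 75 without a fold limit and 0 to 0 with any 1 array or replicate left out. The line difference called 0, with 4 under the robust trended prior and 1 without DG-75 AZD replicate 3. Genes near zero changed sign. Under quantile normalization and median subtraction these were MYC (0.0033, 0.0077), CSF1R (0.023, 0.0040), KRT8 (0.077, 0.045), KRT19 (0.041, 0.040), TXNIP (0.021, 0.025), NKG7 (0.13, 0.083), CDKN1A (0.077, 0.090), CD5 (0.13, 0.093) and MAX (0.12, 0.11). With arrays left out, BCL2 ran from -0.20 to 0.15, BRD2 from -0.075 to 0.13, CD5 from -0.22 to 0.11, CDKN1A from -0.15 to 0.14, KRT19 from -0.16 to 0.046, LMO2 from -0.15 to 0.75, MAX from -0.14 to 0.11, MCL1 from -0.035 to 0.11, NKG7 from -0.25 to 0.12 and TXNIP from -0.30 to 0.25. The causes were not tested.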

Other observations

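Of 564 rows whose symbol starts with ZNF (zinc finger genes), 458 were lower under AZD, against 63.9% of all rows, with a median of -0.21 against -0.08, and 13.8% were lower at an unadjusted p under 0.05 against 9.6% of all rows. ZNF432 was their 1 call. The class median was -0.35, -0.07 and -0.20 in the pairs of replicates 1, 2 and 3, against -0.11, -0.07 and -0.06 for all rows, and AZD replicate 1 was the array with the lowest median. The class median was -0.09 after subtraction of array medians (all rows 0.04), -0.03 when AZD was added to Ento (all rows -0.02) and -0.12 in DG-75 (all rows -0.06). Antisense and divergent transcripts (1285 rows) had a median of 0.03, LINC transcripts (1263 rows) 0.01, and microRNA and small nucleolar RNA rows (1812 rows) 0.03. After subtraction of array medians these were 0.15, 0.13 and 0.15.

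Most calls lay in the middle and upper range of expression. With the rows split by mean expression into 5 equal bins, from the lowest to the highest, 0, 4, 20, 13 and 9 rows were called, all lower, and the median change was -0.0033, -0.05, -0.10, -0.13 and -0.10. The 4 calls in the next to lowest bin were KLRC3, RTKN2, RASSF6 and LINC01152. The median SD between replicates ran from 0.18 in the highest bin to 0.26 in the next to lowest bin.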
